A study of Mus musculus with 6 samples.

Results

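The luminal layer of the uterus from epithelial *Lif* knockout females given recombinant Lif (rLif) was compared with the luminal layer of control females, gene by gene. A gene was included when its counts summed over the 3 luminal libraries reached at least 10, which held for 15694 of the 23420 genes in the table. At that limit, 119 genes had a summed count of 10 and were included, and 92 genes had 9 and were not. Uteri of all groups were collected on day 4 of pregnancy, in the evening at 8 pm, before blastocysts attach. The control group was Lif-floxed/floxed and received PBS. The *Lif* eKO group was Lif-floxed/floxed Ltf-Cre/+ and also received PBS, and the rLif-treated eKO group had that genotype and was injected intraperitoneally with 20 µg rLif per head at 10 am and 6 pm, so that dissection came 2 h after the last dose. All 3 groups thus carried the floxed allele, in which loxP sites flank exon 3 and the coding part of exon 4. Only the controls lacked Cre, which the *Ltf* promoter drives in the uterine epithelium. The tissue was cut out by laser microdissection, and RNA of 3 independent samples per group was pooled into 1 library. The comparison asked which transcripts were still away from control, and which lay beyond it, once Lif had been supplied from outside.

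Lif is a secreted cytokine of the interleukin-6 family. It binds a receptor made of Lifr and gp130 (*Il6st*), and Jak kinases bound to that receptor phosphorylate Stat3, which enters the nucleus and turns on targets that include its own inhibitor *Socs3*. In mice, estrogen on day 4 induces Lif in the uterine glands, and without it the luminal epithelium does not accept a blastocyst.

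The libraries held 23850565 counts (labelled control), 28460465 counts (labelled eKO) and 27809527 counts (labelled eKO with rLif), and the 20 most abundant genes took 13.7% to 17.8% of them. *Lif* itself, the targeted gene, was at 0 counts under the label control, at 28 under the label eKO and at 0 under the label eKO with rLif. Counts over the whole gene include parts outside the floxed exons. *Lif* therefore stood against the labels of the control and eKO libraries. By the size rule given next, the eKO library had 18 of 34 Stat3 targets lower and 1 higher than control. Over all genes, 9.15% were lower and 8.08% higher. *Socs3*, a member of that list, had 153 counts in eKO against 1482 in control. The list was chosen with earlier results of these data known, and whether the labels are right was not tested. Markers of the glands, where Lif is made, summed to only 14.2 CPM in control and 9.86 CPM in eKO, and their part in the *Lif* counts was not tested. Every direction below is between libraries named by their labels. With 1 library per group there was no replicate check, and no p-value is given. By this size rule, a gene is called higher or lower when the exact 95% interval of the ratio of its counts, after scaling for library size, lay wholly beyond 2-fold (a log2 ratio of 1 or -1). That interval covers counting error only, and a call compares these pooled libraries rather than the conditions. Levels are in CPM, counts scaled to a common library size, and a fold against a library with 0 counts is a minimum, taken with 3 counts there.

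Set against the library labelled control, the one labelled eKO with rLif had 1438 called genes, which is 9.16% of those analysed. Of these, 647 (4.12%) were higher and 791 (5.04%) lower with rLif. When libraries were scaled by total counts alone, the median log2 ratio of all genes moved from 0.012 to -0.165 and the calls became 439 higher and 1031 lower, so the share of higher calls among the called genes went from 45.0% to 29.9%. Most calls were of moderate size. Beyond 4-fold there were 115 higher and 180 lower genes, beyond 8-fold 23 and 44, and beyond 16-fold 4 and 20. Among the called genes, 148 had 0 counts in the library labelled control and 152 had none in the library labelled eKO with rLif. edgeR's exact test called 136 higher and 206 lower genes with a dispersion assumed to be 0.1, and 0 in each direction with 0.4, so the number rests on a spread between pools that was not measured.

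**Figure D1:**
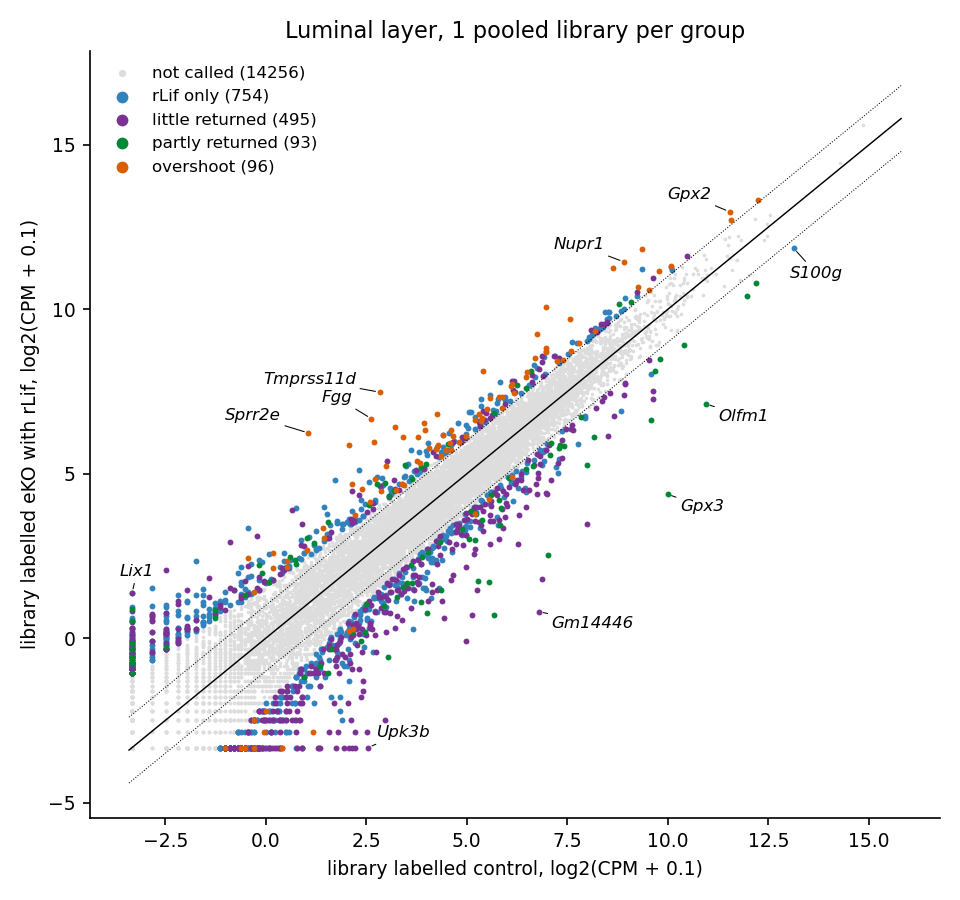
Level of each of the 15694 genes in the library labelled control (horizontal) and in the library labelled eKO with rLif (vertical), both as log2(CPM + 0.1). Each point is 1 gene, the solid line marks equal levels, the dotted lines mark 2-fold, and colors give the classes described in the text; *Sprr2e*, *Tmprss11d* and *Fgg* lie far above the line and *Gpx3*, *Olfm1* and *Gm14446* far below it.

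The untreated eKO library was then used to place each call. Genes called in the same direction against control with and without rLif were named little returned when rLif-treated and untreated eKO were not called apart in the direction of control, and partly returned when they were. Overshoot genes were called on opposite sides of control without and with rLif, and rLif only genes were called against control only with rLif. By these rules 495 genes were little returned (153 higher, 342 lower than control with rLif), 93 were partly returned (39 higher, 54 lower), 96 overshot (82 higher, 14 lower) and 754 were in the rLif only class (373 higher, 381 lower). A further 1022 genes, called between eKO and control, had an interval for rLif-treated eKO against control wholly within 2-fold and were named returned, and 998 could not be placed. The 3 comparisons share libraries, so these numbers describe 3 libraries and nothing is inferred from their overlap. For reference, the eKO library had 2704 called genes against control (17.2% of those analysed, with 8.08% higher and 9.15% lower). The rLif-treated library had 2456 against eKO (15.6%, with 7.88% higher and 7.77% lower).

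**Figure D2:**
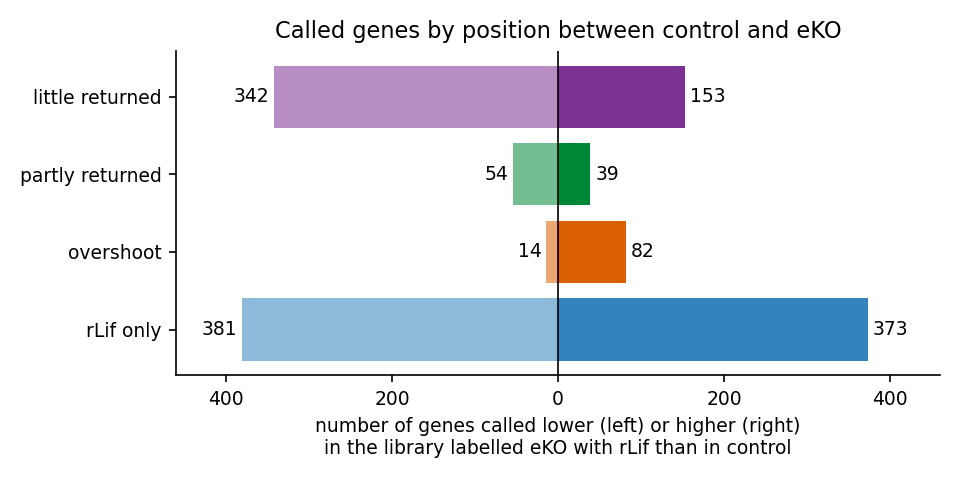
Number of genes in each class, called lower (left of 0, paler) or higher (right of 0) in the library labelled eKO with rLif than in the one labelled control. Overshoot genes were mostly higher (82 against 14), and little returned genes were mostly lower (342 against 153). A call below control needs enough counts in control, which limits overshoot on the lower side.

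Overshoot above control was led by genes of squamous epithelia and of the plasma acute phase. Counts are given in the order control, eKO, eKO with rLif, each by its label. *Sprr2e* (chr3:92352143-92353449), which encodes a small proline-rich protein of the cornified envelope, had 50, 11 and 1967 counts. It was lowest in the library labelled eKO and 38.2-fold above control with rLif, a log2 ratio of 5.25 (interval 4.85 to 5.69), but near-identical family members make its counts uncertain. *Tmprss11d* (chr5:86302854-86373387), a transmembrane serine protease of squamous and airway epithelium, had 177, 12 and 4650 counts, a log2 ratio against control of 4.67 (4.45 to 4.90). *Fgg* (chr3:83007896-83015049), the gamma chain of fibrinogen, had 153, 0 and 2661 counts, which is a log2 ratio of 4.08 (3.84 to 4.32). Each of these was thus scarce in control, at 1.98 to 7.01 CPM, and reached 75.6 to 179 CPM with rLif.

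Among genes called higher, the largest gains in level were in genes already abundant in control. *Gpx2*, the glutathione peroxidase of epithelial cells, had 75012, 17161 and 207942 counts, a gain of 5016 CPM over control and a log2 ratio of 1.43. *Ctsb*, the lysosomal protease cathepsin B, had 121457, 55182 and 266245 counts, a gain of 5416 CPM and a log2 ratio of 1.09. Its exons overlap those of *Fdft1*, so its counts are uncertain. *Ifitm1*, an interferon-induced membrane protein, had 77253, 25437 and 176335 counts, or a log2 ratio of 1.15. *Ctsb* and *Ifitm1* lay close to the 2-fold limit and were not called under total-count scaling. *Sprr2f* had 16676, 4089 and 94769 counts with a log2 ratio of 2.46, and *Nupr1*, a stress-induced nuclear protein, had 12110, 1160 and 72411 counts with 2.54. Over the 82 genes that overshot upward, the median level was 24.2 CPM in control and 89.5 CPM with rLif, and 45 of them (54.9%) fell in the top class when genes were split by abundance into 3 of equal size. Among genes called higher, that share was 19.8% in the rLif only class, 24.2% in the little returned class and 38.5% in the partly returned class. The class rules set part of this contrast. An upward overshoot requires control to be called above eKO, whereas higher genes of the other classes can have no counts in control.

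Overshoot below control was rare, and the genes named for it had low counts. The size rule sets part of this, because a gene with few counts in control cannot be called below it. Of the genes that could not be placed, 612 were higher in eKO, and their median level in control was 0.357 CPM. *Cyp2a5*, a cytochrome P450, had 54, 168 and 1 counts. *Ppp1r1b*, a phosphatase inhibitor whose exons overlap another gene, had 31, 112 and 0 counts, at least 10.7-fold lower than control with rLif. *Fam124b* had 18, 142 and 0 counts, at least 6.19-fold lower. The median level of the 14 genes of this kind was 1.07 CPM in control and 0.0576 CPM with rLif.

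Incomplete return was larger on the low side. *Gpx3* (chr11:54902854-54910382), the secreted glutathione peroxidase, had 25746, 240 and 538 counts. Its level went from 8.36 CPM to 20.7 CPM with rLif, but control stood at 1020 CPM, a log2 ratio of -5.62 (-5.75 to -5.50). *Pinlyp*, a phospholipase inhibitor of the Ly6 family, had 1287, 5 and 40 counts (log2 ratio -5.05), and *Mmp7*, the epithelial metalloproteinase matrilysin, had 3290, 54 and 147 counts (-4.53). All 3 regained 2-fold or more over eKO and still lay more than 16-fold under control.

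Some of the most abundant transcripts of control also stopped short. *Olfm1*, a secreted olfactomedin glycoprotein, had 49880, 218 and 3623 counts, or 1976, 7.59 and 139 CPM. *Prap1*, a secreted acidic protein of the uterine epithelium, had 117654, 3134 and 46144 counts, and *8430408G22Rik* (named Depp1 in RefSeq) had 100224, 47 and 35376. Their log2 ratios against control were -3.83 for *Olfm1*, -1.40 for *Prap1* and -1.55 for *8430408G22Rik*. On the log2 scale with 2 CPM added, *Olfm1* covered 50.5% of the way from eKO back to control, *Prap1* 74.2% and *8430408G22Rik* 84.7%, against 17.1% for *Gpx3*. *S100g*, the cytosolic calcium-binding protein calbindin-D9k, followed another course. It had 226229, 184121 and 96232 counts, so it was called lower only with rLif, with a log2 ratio of -1.28 (-1.29 to -1.27), and its level went from 8962 to 3696 CPM, the largest loss of any gene called lower.

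**Figure D3:**
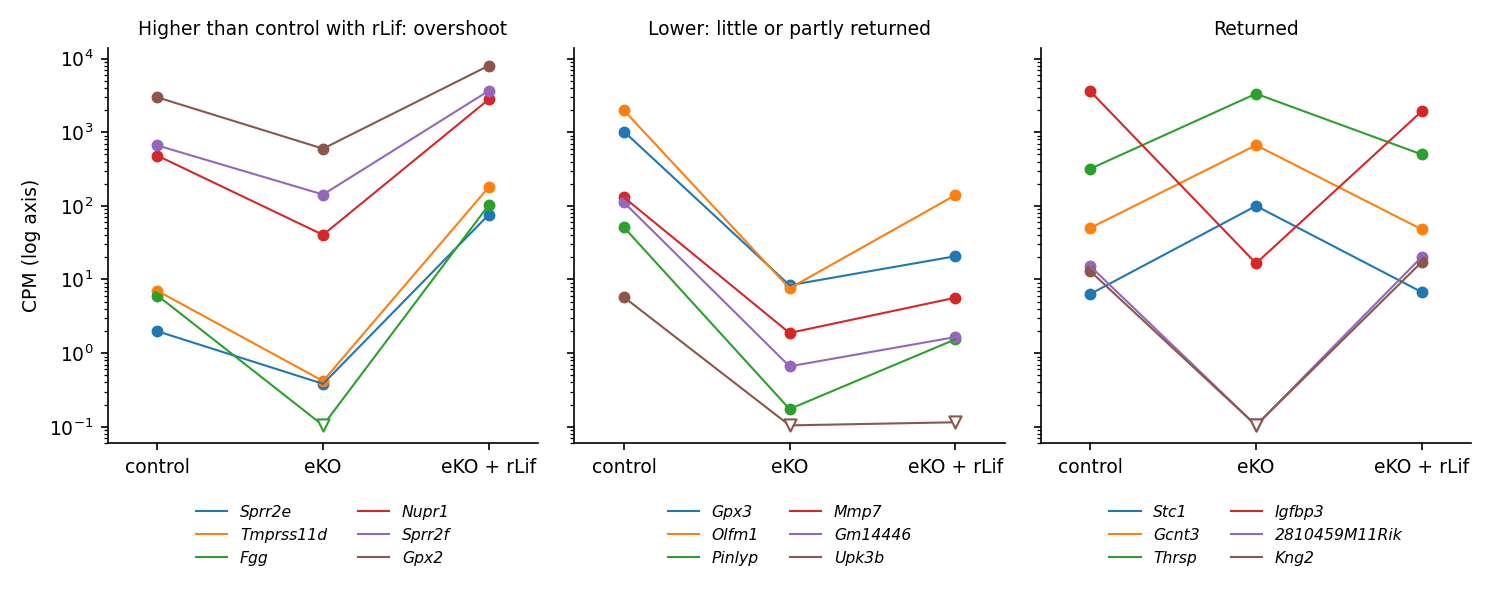
Level in CPM (log axis) of 18 named genes in the 3 luminal libraries, 1 pooled library per group; lines join the values of a gene and open triangles mark 0 counts, drawn at the level of 3 counts. *Sprr2e*, *Tmprss11d* and *Fgg* end far above control, *Gpx3*, *Olfm1* and *Upk3b* end far below it, and *Stc1* and *Gcnt3* end close to it.

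Little returned genes showed no recovery that passed the size rule. That rule depends on the number of counts, so failing it does not mean that recovery was absent or smaller. *Gm14446* rose 2.50-fold from eKO at few counts and was little returned, whereas *Gpx3* rose 2.47-fold at more counts and was partly returned. *Gm14446*, listed here with the interferon-stimulated genes and part of a family with similar members, had 2810, 19 and 43 counts (log2 ratio -6.08). *Upk3b*, of the uroplakin family, had 145, 0 and 0 counts, at least 49.8-fold lower than control with rLif. *Cfc1*, a co-receptor for Nodal, had 116, 0 and 0 counts, at least 39.9-fold lower. For 7 of the 342 little returned genes on the low side, the library with rLif was even called below the one without it. Among these 7, *Ehhadh*, a peroxisomal enzyme of fatty acid oxidation, had 791, 85 and 22 counts, and *Adh7*, an alcohol dehydrogenase, had 82, 24 and 0. They were picked out after their values were seen, as were the others, *Fhod3*, *Spink12*, *S100a9*, *Nr1h5* and *Kcng4*.

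On the high side, the genes named for little or partial return had low counts in control, although 37 of 153 little returned and 15 of 39 partly returned genes fell in the top abundance class. *Il6*, a cytokine of the same family as Lif, had 2, 240 and 106 counts, a log2 ratio against control of 5.68 with a wide interval (3.79 to 8.75). *Lix1* had 0, 29 and 65 counts, and with rLif it exceeded control at least 21.0-fold. *Msc*, a transcriptional repressor, had 0, 31 and 44 and exceeded it at least 14.2-fold. *Mapk10*, the kinase Jnk3, had 0, 189 and 46 counts and was partly returned. *Uox*, urate oxidase, had 0, 136 and 35, and *1700001P01Rik* had 0, 301 and 21. The median level of little returned genes on this side was 0.555 CPM in control and 2.77 CPM with rLif.

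Genes of the rLif only class were mostly at low counts too. *Pinc*, a non-coding RNA known from the mammary gland, had 0, 0 and 48 counts. *1700020A23Rik* had 1, 0 and 73. *Pcdhgb6*, a protocadherin that shares exons with the rest of its cluster and so has uncertain counts, had 0, 8 and 65. On the lower side, *Pck1*, which encodes a rate-limiting enzyme of gluconeogenesis, had 45, 19 and 0 counts, at least 15.5-fold lower than control. *Prelp*, a matrix proteoglycan, had 45, 95 and 0. *Gm10516*, an antisense RNA whose counts cannot be assigned to a strand, had 92, 41 and 2. Not being called in eKO does not mean that eKO matched control. *Pck1* and *Gm10516* already lay below control in eKO (log2 ratios -1.43 and -1.35) and *Prelp* above it (0.89). Each of these had an interval that crossed the limit. The median level in this class was 0.357 CPM in control and 2.07 CPM with rLif for the higher genes, and 3.64 CPM and 0.807 CPM for the lower ones.

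Returned genes set the scale for these values. *Stc1*, the glycoprotein hormone stanniocalcin, had 161, 2865 and 176 counts, and *Gcnt3*, a glycosyltransferase that branches mucin glycans, had 1268, 19153 and 1251. Their log2 ratios against control were 0.08 and -0.06, and that of *Stc1* was -0.09 under total-count scaling. *Thrsp*, a regulator of lipid synthesis, had 8072, 95644 and 13017 counts and ended at 0.65. In the other direction, *2810459M11Rik* had 380, 0 and 526 counts, and the kininogen gene *Kng2* had 325, 0 and 448. *Igfbp3*, a binding protein for insulin-like growth factors, had 90135, 476 and 49934 counts, or a log2 ratio of -0.90, but it passed the limit (-1.07) when libraries were scaled by total counts.

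Genes of the signaling chain itself were compared next, beginning with the receptor. *Lifr* had 5362, 1463 and 4554 counts, so its level was back near control with rLif (log2 ratio -0.28, interval -0.34 to -0.22). *Il6st* had 661, 826 and 1047 counts (0.62), *Jak1* 5725, 4809 and 8746 (0.57), and *Stat3* 5758, 3213 and 7823 (0.40). None of these was called against control. Of 30 analysed genes for the Lif receptor, Jak-Stat signaling and its feedback, 3 were called higher (10%) and 0 lower. Over all genes, 4.12% were higher and 5.04% lower. The median log2 ratio of the list was 0.33 beside 0.012 over all genes. The 3 were *Osmr*, the oncostatin M receptor (1413, 71 and 4178 counts, log2 ratio 1.52), *Socs3*, the feedback inhibitor of this pathway (1482, 153 and 4242, 1.47), and *Cish*, a feedback inhibitor of Stat5 (582, 1019 and 1368, 1.19). *Osmr* and *Socs3* overshot, whereas *Cish* was highest with rLif and lowest in control. *Socs2*, another family member, had 4539, 1627 and 8901 counts, and its log2 ratio of 0.93 stayed under the limit.

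Among 34 analysed Stat3 target genes, 13 were called higher than control with rLif and 3 lower, 38.2% and 8.82% beside 4.12% and 5.04% of all genes, and the median log2 ratio was 0.45. Of the 34, 8 overshot, 8 returned and 1 was little returned. The 8 were *Fgg*, *Nupr1*, *Lrg1*, *Timp1*, *Osmr*, *Socs3*, *Bcl3* and *Cebpd*, whose exons overlap another gene. *Lrg1*, a secreted leucine-rich glycoprotein, had 530, 29 and 1901 counts (log2 ratio 1.80), and *Timp1*, an inhibitor of metalloproteinases, had 612, 128 and 2112 (1.74). *Lcn2*, the iron-sequestering protein lipocalin 2, had 4200, 110 and 8824 counts, and its log2 ratio of 1.03 had an interval that crossed the limit (0.97 to 1.08). The 3 lower genes were *Gadd45b*, a growth arrest gene with 1516, 359 and 265 counts (-2.56), *Tnfaip3*, an inhibitor of NF-kB with 161, 101 and 58 (-1.52), and the cyclin *Ccnd1*, which overlaps a microRNA gene, with 952, 857 and 410 (-1.26). The Stat3 targets did not move as 1 block, and *Myc* (4626, 1683 and 3056 counts) ended at a log2 ratio of -0.64.

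**Figure D4:**
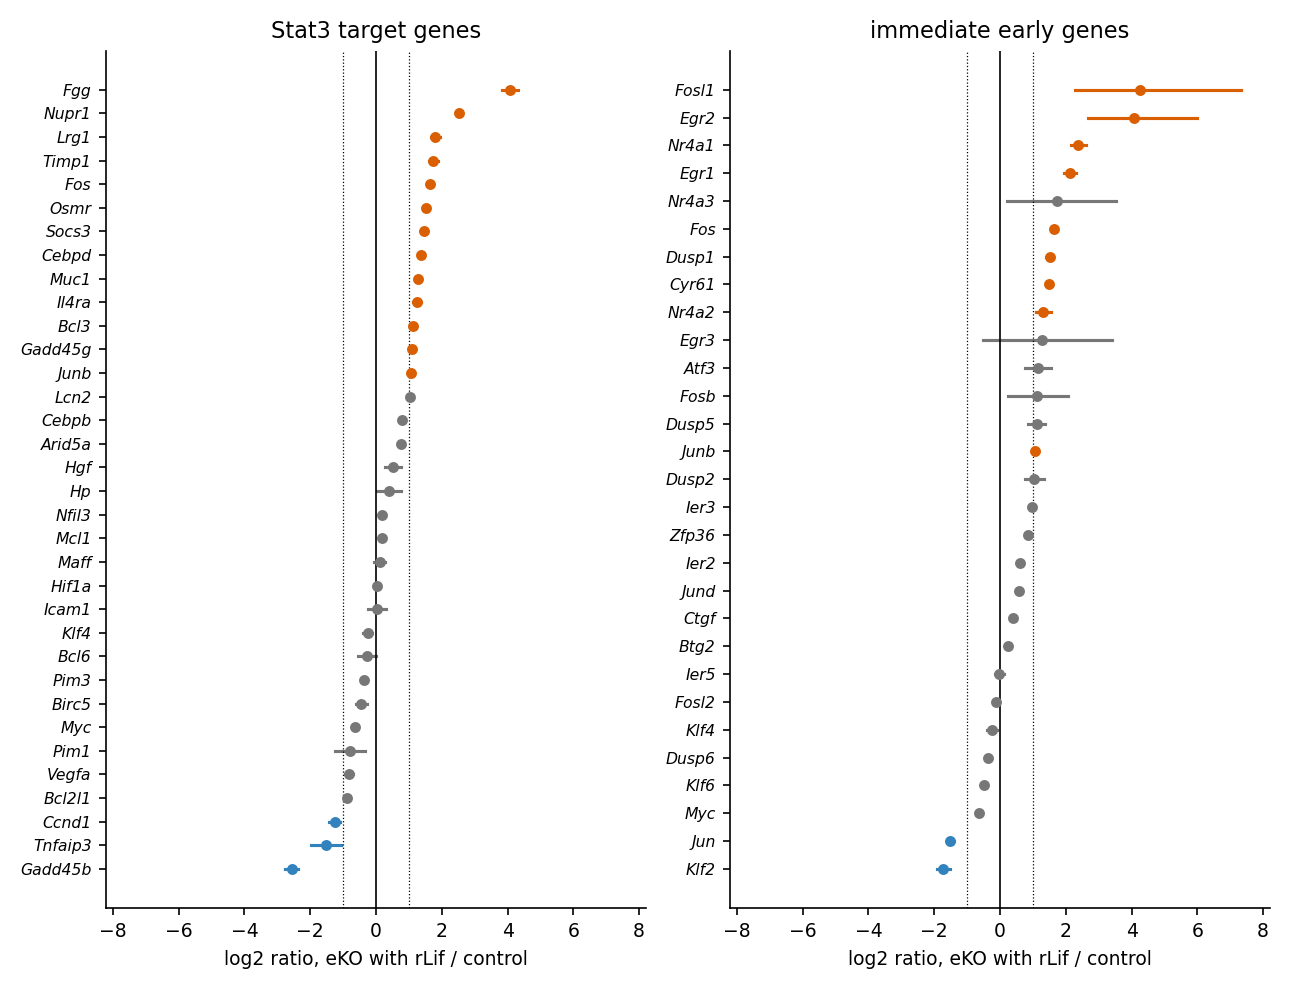
Log2 ratio of the library labelled eKO with rLif to the one labelled control for the analysed members of the Stat3 target list (left) and the immediate early list (right). Points are ratios, bars are 95% intervals for counting error, dotted lines mark 2-fold, and orange and blue mark genes called higher and lower; *Fgg* (4.08) leads the left panel and *Gadd45b* (-2.56) closes it.

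The promoters of *Socs3* and *Nupr1* are shown because both genes overshot and their windows hold the sequence TTCNNNGAA, the palindromic core of sites that Stat factors bind, and that of *Sprr2e* is shown as the gene with the largest overshoot and no match. Each window runs from 250 bases before to 50 bases after the annotated start (RefSeq, GRCm38.p6), 5′ to 3′ on the strand of the gene, and capitals mark the match.
*Socs3*, chr11:117969317-117969616, minus strand: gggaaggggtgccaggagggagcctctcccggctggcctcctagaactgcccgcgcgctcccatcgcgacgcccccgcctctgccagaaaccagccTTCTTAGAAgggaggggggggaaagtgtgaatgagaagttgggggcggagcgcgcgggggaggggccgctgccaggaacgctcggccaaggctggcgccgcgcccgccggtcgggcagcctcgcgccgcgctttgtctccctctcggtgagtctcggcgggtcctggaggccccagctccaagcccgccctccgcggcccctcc
*Nupr1*, chr7:126625421-126625720, minus strand: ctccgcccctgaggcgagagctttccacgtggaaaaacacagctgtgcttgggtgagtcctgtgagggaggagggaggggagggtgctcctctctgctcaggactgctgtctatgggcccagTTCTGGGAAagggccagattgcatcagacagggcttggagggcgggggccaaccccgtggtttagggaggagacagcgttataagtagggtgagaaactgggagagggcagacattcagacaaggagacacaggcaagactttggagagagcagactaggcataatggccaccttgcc
*Sprr2e*, chr3:92351893-92352192, plus strand: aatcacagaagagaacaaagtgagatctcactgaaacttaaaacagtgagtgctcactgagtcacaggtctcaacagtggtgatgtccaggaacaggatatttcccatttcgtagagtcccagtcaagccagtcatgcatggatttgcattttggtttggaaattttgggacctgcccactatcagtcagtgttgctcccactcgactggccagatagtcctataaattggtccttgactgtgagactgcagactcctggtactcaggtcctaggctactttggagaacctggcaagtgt
The match in *Socs3* began 154 bases before the start and that in *Nupr1* 128 bases before it. TTCNNNGAA, which reads the same on both strands, was found in 8.30% of the 32851 promoter windows of this length, and the related motif with 1 more base between its arms in 6.95%. Of the 13 Stat3 targets called higher, 12 had a window, of which 2 held TTCNNNGAA and 0 held the longer motif. These were counted per gene, whereas the shares over all promoters are per window, so they are not like for like. Only 60 of the 82 genes that overshot upward had a window (73.2%), so no share is given for them. A match describes letters in a window and says nothing on binding.

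Acute phase genes are expressed by the liver and some epithelia in response to cytokines of the interleukin-6 family. Of 23 analysed members, 7 were higher and 1 lower, 30.4% and 4.35% beside 4.12% and 5.04% of all genes. Their median log2 ratio was 0.55. *Orm1*, an acute phase plasma glycoprotein, had 104, 37 and 1530 counts (log2 ratio 3.83, interval 3.55 to 4.13). *Fga*, the fibrinogen alpha chain, had 197, 1 and 979 (2.27), and *Kng1*, a kininogen, had 485, 0 and 1514 (1.60). *Fgb*, the remaining fibrinogen chain, was at 0 counts in both compared libraries, as was *Alb*. *Hpx*, the heme-binding hemopexin, had 2, 17 and 23 counts (3.48, 1.46 to 6.61). The lower gene was *Serpina3g*, a protease inhibitor whose exons overlap *Serpina3f*, with 638, 236 and 97 counts (-2.76). In all, 5 of the 23 overshot and 3 returned.

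Genes of squamous and cornified epithelia gave 9 higher (37.5%) and 0 lower of 24 analysed members, beside 4.12% and 5.04% of all genes. Their median log2 ratio of 0.96 was the largest after that of the immediate early list. *Sprr2g* had 9957, 2549 and 63761 counts (log2 ratio 2.63), a course much like that of *Sprr2f*, with the same doubt over reads shared within the family. *Tgm1*, the transglutaminase that cross-links the cornified envelope, had 17, 6 and 122 counts (2.80, 2.06 to 3.62). *Sprr1a* had 70, 32 and 354 counts (2.29). *Krt13*, a keratin of internal squamous epithelia, reached only 10 counts with rLif, and the basal keratins *Krt5* and *Krt14* were at 0 in both compared libraries. Of the 46 list genes in the table, 22 had 0 counts with rLif.

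Steroid-responsive genes went both ways. Of 22 estrogen-responsive epithelial genes, 5 were higher and 5 lower, 22.7% each beside 4.12% and 5.04% of all genes. The higher ones were *Sprr2e*, *Sprr2f*, *Sprr2g*, *Fos* and the mucin *Muc1* (1555, 1955 and 3922 counts, log2 ratio 1.29). Some of these also count in other lists, *Sprr2g* in the squamous list and *Fos* in the immediate early list. Among the lower ones were *Gpx3*, the water channel *Aqp5* with 88, 48 and 3 counts (-4.92), the inhibin subunit *Inhbb* with 138, 2 and 27 (-2.40) and lactoferrin, *Ltf*, with 2745, 992 and 851 (-1.73). *Ltf* also drives the Cre of both eKO groups, so its locus differs between the compared genotypes. Of 24 progesterone-responsive genes, 2 were higher and 2 lower, 8.33% each, and 9 returned. *Areg*, the EGF receptor ligand amphiregulin, overshot with 1067, 236 and 7232 counts (2.72), and *Calb1*, the calcium-binding calbindin-D28k, was partly returned with 13579, 175456 and 30828 (1.14). *Calb1* was near the limit, and 1 gene of this list rather than 2 was called higher under total-count scaling. The kinase *Sgk1*, which raises sodium channel activity, had 2961, 5146 and 1006 counts (-1.60). *Pgr* (594, 1736 and 928 counts) and *Esr1* (1781, 2172 and 1411), the receptors themselves, were not called against control. Of 17 analysed steroid receptors and cofactors, only the chaperone *Fkbp5* was called (1185, 1081 and 532, -1.20). That share, 5.88% lower, was near the share of all genes.

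Genes linked to blastocyst attachment split evenly, with 4 higher and 4 lower of 33, 12.1% each beside 4.12% and 5.04% of all genes. On the higher side with *Areg* were *Sfrp1*, a secreted Wnt inhibitor with 393, 21 and 2081 counts (log2 ratio 2.36), the EGF family ligand *Ereg* with 26, 0 and 112 (2.06), and the vasoconstrictor peptide *Edn1* with 1018, 2600 and 2294 (1.13). On the lower side, *Wnt7b*, a Wnt ligand whose exons overlap another gene, had 19376, 105 and 2580 counts (-2.95), and *F3*, tissue factor, had 20138, 3979 and 4016 (-2.37). *F3* differed little between eKO and rLif-treated eKO (139 and 154 CPM) beside 798 CPM in control. *Itgb5*, an integrin subunit, had 4130, 2167 and 1707 counts (-1.32), and *Ptgs1*, cyclooxygenase-1, had 3240, 2732 and 1543 (-1.11). In total 10 of the 33 returned, among them *Hbegf*, a ligand of the EGF receptor, with 1134, 457 and 1789 counts (0.61).

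**Figure D5:**
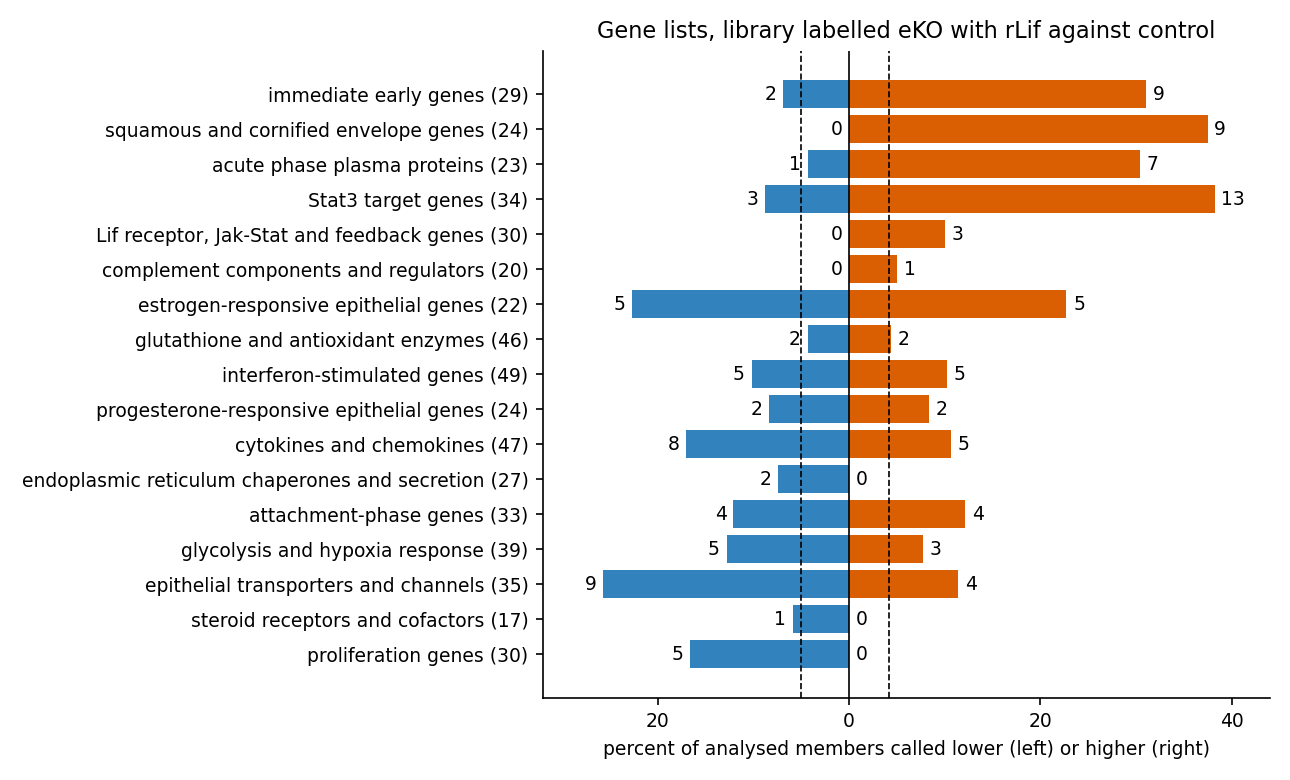
Percent of the analysed members of each of 17 gene lists called lower (left) or higher (right) in the library labelled eKO with rLif than in the one labelled control, sorted by median log2 ratio, with numbers of genes at the bars and list sizes in brackets. Dashed lines mark the shares over all genes (4.12% higher, 5.04% lower); Stat3 targets (13 of 34), squamous genes (9 of 24) and immediate early genes (9 of 29) lie to the right, transporters (9 of 35) to the left.

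Epithelial transporters and channels gave 9 lower and 4 higher of 35, 25.7% and 11.4% beside 5.04% and 4.12% of all genes. Their median log2 ratio was -0.09. Their summed level was higher with rLif (3014 CPM) than in control (2250 CPM). *Scnn1g*, the gamma subunit of the epithelial sodium channel, had 45, 0 and 0 counts, at least 15.5-fold lower than control, and *Clca2*, a regulator of chloride channels, had 62, 0 and 0, at least 21.3-fold lower. *Slc9a2*, a sodium-proton exchanger, was partly returned with 286, 14 and 81 counts (log2 ratio -1.86). *Kcnq1*, a potassium channel whose exons overlap its antisense RNA, had 388, 303 and 90 (-2.15). Higher were the anion exchanger *Slc26a6* (1202, 100 and 4115 counts, 1.73), *Clca1* (34, 39 and 114, 1.70), the calcium channel *Trpv5* (58, 30 and 164, 1.46) and the zinc transporter *Slc39a8* (7309, 418 and 17020, 1.18). Under total-count scaling only 1 of the 35 was called higher.

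Glutathione and antioxidant enzymes stayed near the shares of all genes, with 2 higher and 2 lower of 46. The cystine transporter *Slc7a11* was little returned with 37, 500 and 385 counts (log2 ratio 3.33), and the transferase *Gstt3* had 939, 1323 and 371 (-1.38). Within the list, the peroxidases *Gpx2* and *Gpx3* thus lay on opposite sides of control. Glycolysis and hypoxia genes gave 3 higher and 5 lower of 39, 7.69% and 12.8% beside 4.12% and 5.04% of all genes. The glucose transporter *Slc2a1* had 2116, 703 and 587 counts (-1.89), lactate dehydrogenase B, *Ldhb*, 10292, 2708 and 2794 (-1.93), and the lactate transporter *Slc16a3* 214, 33 and 42 (-2.39). All 3 were little returned. *Aldoc*, a glycolytic aldolase, overshot with 1041, 40 and 2671 counts (1.31). *Gapdh* was called higher with 478, 309 and 1476, but many copies of this gene in the genome make its counts uncertain.

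Interferon-stimulated genes gave 5 higher and 5 lower of 49, 10.2% each beside 4.12% and 5.04% of all genes. *Gbp2*, a guanylate-binding protein, overshot with 3179, 128 and 11675 counts (log2 ratio 1.83), and *Isg20*, an exonuclease, with 15427, 7854 and 42532 (1.42). *Ifi27l2a* had 226, 662 and 723 counts (1.63). In contrast, *Ifit3*, an RNA-binding antiviral protein, had 6360, 199 and 288 (-4.51), *Rsad2*, which encodes viperin, had 761, 236 and 315 (-1.32), and the chemokine *Cxcl10* had 167, 56 and 17 (-3.34). Of the 49 genes, 4 overshot, 5 were little returned, 5 returned and 32 were not called either in eKO or with rLif against control. Under total-count scaling 3 rather than 5 of its members were called higher. Complement genes gave 1 higher of 20 (5%, near the share of all genes), *C4b* with 2, 11 and 42 counts, and 5 of the 20 returned.

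Cytokines and chemokines gave 5 higher and 8 lower of 47, 10.6% and 17.0% beside 4.12% and 5.04% of all genes. Besides *Il6*, the higher genes included *Ccl8*, a chemokine for monocytes, with 81, 184 and 732 counts (log2 ratio 3.13), and *Csf3*, the granulocyte growth factor, with 277, 3904 and 990 (1.79). Among the lower genes were *Il23a*, a subunit of interleukin 23, with 434, 298 and 58 counts (-2.95), and *Il33*, an alarmin, with 22, 3 and 2 (-3.50). *Csf1*, the macrophage growth factor of the uterine epithelium, was partly returned with 1053, 29 and 311 counts (-1.80), and *Il34*, which binds the same receptor, with 502, 48 and 194 (-1.42). Immune cell markers moved little beside them, with 0 higher and 1 lower (6.67%) of 15, and summed levels of 1258 CPM in control and 1338 CPM with rLif.

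Immediate early genes, which cells transcribe within minutes of a stimulus, gave 9 higher and 2 lower of 29. These were 31.0% and 6.90%, beside 4.12% and 5.04% of all genes. The median log2 ratio of the list, 1.03, was the largest of the 17 lists. *Egr1*, a zinc finger factor, had 304, 532 and 1358 counts (log2 ratio 2.12), *Nr4a1*, an orphan nuclear receptor, had 202, 641 and 1081 (2.38), and *Fos* had 2583, 3764 and 8247 (1.63). These 3 were lowest in control and highest with rLif. *Dusp1*, a phosphatase of MAP kinases, had 1067, 3874 and 3139 counts (1.51), with 135 CPM in eKO and 121 CPM with rLif against 42.3 CPM in control. *Fosl1* (2, 1 and 39 counts, 4.24) and *Egr2* (4, 35 and 70, 4.08) were higher from very low levels, and the exons of *Fosl1* overlap another gene. *Jun*, with 3026, 2262 and 1097 counts (-1.51), and *Klf2*, with 852, 484 and 266 (-1.72), were the lower ones. The time from injection to dissection, 2 h, is given for rLif, and the times of the PBS injections are not given in the sources used here. *Ptgs2*, cyclooxygenase-2, which belongs to the attachment list, had 150, 294 and 335 counts and an interval (0.83 to 1.40) that crossed the limit.

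Proliferation genes gave 0 higher and 5 lower (16.7%) of 30, beside 4.12% and 5.04% of all genes. Their median log2 ratio was -0.56. *Ccnb1*, a mitotic cyclin, had 494, 328 and 73 counts (log2 ratio -2.80, interval -3.18 to -2.45), *Ccnb2* had 392, 293 and 72 (-2.49), and *Foxm1*, a transcription factor of mitotic genes whose exons overlap another gene, had 149, 43 and 33 (-2.22). *Mki67* had 562, 354 and 224 counts (-1.37). The summed level of the list went the other way, from 598 CPM in control to 636 CPM with rLif, and the abundant replication genes *Pcna* (1818, 2062 and 3181 counts) and *Mcm3* (659, 541 and 1073), named here after their values were seen, had positive log2 ratios (0.76 and 0.66) without being called. Chaperones and secretory genes of the endoplasmic reticulum gave 0 higher and 2 lower (7.41%) of 27. The lower ones were *Herpud1* (2588, 1430 and 1114 counts) and *Sdf2l1* (4178, 2446 and 2028).

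Markers of the tissue were then examined, beside 4.12% higher and 5.04% lower over all genes. Of 13 luminal epithelial markers, 0 were called, and their summed level was 11980 CPM in control, 13600 CPM in eKO and 11600 CPM with rLif, as labelled. Stromal markers gave 0 of 13 called, with summed levels of 992 CPM in control and 1027 CPM with rLif. Smooth muscle markers were lower, with 5 of 10 called (50%) and a median log2 ratio of -1.57. Their summed level was 72.9 CPM with rLif against 115 CPM in control. The muscle actins *Acta2* (470, 309 and 134 counts) and *Actg2* (142, 7 and 1) were among the 5. In a pooled tissue layer, fewer cells of a type and less RNA per cell cannot be told apart. Of the 4 glandular markers analysed, 1 (25%) was called higher, the implantation serine protease *Prss29* (123, 111 and 315 counts). The 4 summed to 14.2 CPM in control and 30.7 CPM with rLif. Of 11 endothelial markers, 2 (18.2%) were higher. *Tek*, the angiopoietin receptor, had 124, 198 and 897 counts (log2 ratio 2.81), and *Cdh5* had 232, 623 and 602. The endothelial list summed to 93.0 CPM in control and 142 CPM with rLif. Of 7 analysed blastocyst factors, 1 was called higher and 1 lower (14.3% each). The blastocyst factors *Cdx2*, *Pou5f1*, *Nanog* and *Gata4* were at 0 counts in both compared libraries. *Sox17*, which is on that list but is also made by uterine epithelium, was higher with 27110, 48998 and 65587 counts. Under total-count scaling 0 glandular and 1 endothelial marker were called higher. The part of these markers in the gene groups above was not tested.

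The calls were also set against abundance, which affects the width of the intervals, and against exon length and position, which the size rule did not use. Over all genes, 4.12% were higher and 5.04% lower. In the top abundance class 171 of 5232 genes were higher (3.3%) and 118 lower (2.3%). In the rarest class 360 of 5231 were higher (6.9%) and 490 lower (9.4%). The abundant class was split by exon length into 3 equal classes of 1744 genes. The shortest (337 to 1808 bases) had 84 higher (4.8%) and 22 lower (1.3%) calls and a median log2 ratio of 0.30. The middle class had 44 (2.5%) and 58 (3.3%) calls and a median of -0.04. The longest had 43 (2.5%) and 38 (2.2%) calls and a median of 0.02. The short genes were also above control in the library labelled eKO, with a median of 0.16. The 82 genes that overshot upward had a median exon length of 2053 bases beside 2732 over all genes, and *Sprr2e* (647 bases), *Sprr2f* (609) and *Nupr1* (626) are short. Housekeeping lists, picked by the start of gene symbols after values had been seen, had medians of 0.61 (85 respiratory chain symbols) and 0.37 (89 ribosomal protein symbols). Such a pick can also take in related genes that are not subunits. Exon lengths in these lists ran up to 3632 and 7887 bases. In the library labelled eKO the same lists had medians of 0.54 and 0.15 against control. The part of transcript length in the calls was not tested. Within 10 Mb of *Ltf*, where Cre was inserted, 11 of 213 genes were higher and 13 lower (5.16% and 6.10%), and within 10 Mb of *Lif*, 2 of 88 were higher and 7 lower (2.27% and 7.95%).

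Blastocysts of the same groups were the last reference. Of the 647 genes called higher in the luminal layer, 432 were also analysed in blastocysts, of which 8 were higher and 35 lower there with rLif than in control. Of the 791 called lower, 597 were analysed, of which 10 were higher and 57 lower. Of all 13656 genes analysed in both tissues, 97 were higher and 519 lower in blastocysts. Over the 14873 genes analysed in blastocysts, 0.948% were higher and 3.99% lower. *Sprr2e* had 0 counts in every blastocyst library, and *Tmprss11d* had 3, 0 and 0. *Nupr1*, present in both tissues, had 440, 1095 and 472 counts in blastocysts, a log2 ratio of 0.07 between rLif-treated eKO and control.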

How the data were processed

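The authors made SMART-seq v4 libraries, aligned reads to GRCm38/mm10 with HISAT2 and counted them per gene with featureCounts (Subread 2.0.0), per the labels and methods. The deposited values were whole-number counts per gene, not normalized; the methods call the output RPKM, but library totals differed. Annotation release, strand setting and the handling of multimapping reads are not given in the sources used here. Of the 23420 genes, 27 had symbols turned into dates, and 1874 of the 15694 analysed had exons overlapping another gene. TMM scaling (edgeR 4.0.16 in R 4.3.3) used genes with at least 10 counts in the 3 luminal libraries. Ratios have 95% Clopper-Pearson intervals (scipy 1.17.1), which cover counting error only and not the spread between pools. The intervals treat reads as independent. PCR reads without molecular identifiers are not independent molecules, so the intervals can be too narrow even for counting error. Depth limits precision: 3 counts equal 0.104 to 0.119 CPM. The size rule was tested on simulated data.

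The members, the 17 gene lists, the 8 marker lists and the rules were chosen with earlier results of these data known. Some lists share members, such as *Sprr2g*, *Fos*, *Socs3* and *Osmr*, so their shares are not separate results. Named genes were ranked by the interval bound nearest 0, and the 3 per class and direction with that bound furthest from 0 were taken. For returned genes, the interval was that of eKO against control. Also named were the 5 called genes per direction with the largest CPM difference and up to 3 called members per list and direction. Members with a role in the pathway and *Lif* were added. Gene types came from GENCODE M21 and promoter windows from RefSeq (GRCm38.p6). Alternatives were DESeq2 1.42.0 size factors, total counts with or without the 20 most abundant genes, other count minimums and limits, a pseudocount of 2 CPM without intervals, leaving out genes that share exons, and edgeR's exact test with assumed dispersions.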

Additional observations from a re-analysis of the deposited data

Results flagged for a closer look

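Among the named genes and list members, 506 were analysed in both tissues. Of these, 5 were called in opposite directions in the luminal layer and in blastocysts, each for rLif-treated eKO against control. Over all 13656 genes analysed in both tissues, 35 were higher in the luminal layer and lower in blastocysts, and 10 the reverse. Each tissue had 1 library per group, so the difference between tissues was not tested. *Sprr2g* had a luminal log2 ratio of 2.63, whereas its blastocyst counts were 19, 6 and 2 (control, eKO, rLif-treated eKO, log2 ratio -3.28). *Slc39a8* had a luminal log2 ratio of 1.18 and 65, 32 and 5 counts in the blastocyst libraries (-3.73). *Fos* had a luminal log2 ratio of 1.63 and 172, 101 and 64 blastocyst counts (-1.45). *Ccl8* had a luminal log2 ratio of 3.13 and 37, 0 and 0 blastocyst counts, and *Fosl1* one of 4.24 and 12, 0 and 0. Blastocyst counts of all 5 were low, and over all genes analysed there 3.99% were lower with rLif and 0.948% higher.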

How the results depend on the processing

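No paired analysis was possible because each group is 1 library, and for the same reason no library could be left out. Under DESeq2 size factors, no minimum, a minimum of 10 counts over the compared libraries, and omission of genes sharing exons, the counts of called genes and of each class stayed within 1.5 times the values reported. Under total counts, little returned genes on the higher side became 95 and partly returned ones 25; without the 20 most abundant genes the former became 101. A minimum of 50 counts left 221 higher genes in the rLif only class. A log2 limit of 2 gave 115 higher and 180 lower genes: little returned 22 and 77, partly returned 1 and 6, overshoot 17 and 1, rLif only 75 and 96, returned 457. Without intervals and with 2 CPM added, 383 were higher and 461 lower: little returned 83 and 214, partly returned 24 higher, overshoot 5 lower, rLif only 196 and 198. edgeR's exact test gave 136 and 206 genes at a dispersion of 0.1, and 0 and 0 at 0.4. Fewer genes pass a wider limit or a larger assumed dispersion by construction; elsewhere the cause was not tested. Among named genes no called ratio changed sign, and *Stc1*, which was not called (0.08), went to -0.09 under total counts and -0.06 without the 20 most abundant genes. In all, 19 values were no longer called under an alternative and 2, both *Igfbp3*, became called. At this depth, 998 genes called in eKO against control could not be placed because their interval crossed a limit.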
